A study of Mus musculus with 2 samples.

Results

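This report describes 10 genes of actin turnover and dendritic spine regulation in the cerebral cortex of mice: the actins Actb and Actg1, the depolymerising factors Dstn, Cfl1 and Cfl2, the profilins Pfn1 and Pfn2, the exchange factors Kalrn and Tiam1, and the kinase Limk1. Their probe sets were chosen by gene symbol, as all those that the platform's probe-to-gene table pairs with 1 symbol among the 10. This gave 15 probe sets for the 10 genes, out of 10829 probe sets for 8251 genes. The genes themselves were picked with earlier results of the same comparison in view, so the differences below are descriptions and support nothing on their own. Total RNA of cortex was measured on 2 arrays, 1 for presenilin conditional double knockout mice (PS cDKO) and the other for control mice, both aged 6 months. The labels do not give the alleles, the Cre line, the strain, the sex or the number of animals behind an array, and they do not say what the control mice carried. With 1 array per genotype there is no replicate check, and no p-value is given.

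Actin filaments fill dendritic spines, and their growth and disassembly set the shape of a spine. Destrin and the cofilins sever and depolymerise filaments, and profilins load actin monomers for addition at the growing end. Exchange factors such as kalirin and Tiam1 switch on Rac, which acts through PAK kinases on LIM kinase, and LIM kinase phosphorylates and thereby inactivates cofilin. Presenilins form the catalytic core of γ-secretase, and mice without them in the forebrain are known to lose spines, synapses and neurons with age.

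Each array had 12418 probe sets with 1 linear intensity each, in arbitrary units, with a median of 305.5 in PS cDKO and 299.7 in control. Intensities are given as deposited. Log2 ratios are PS cDKO over control after 0.034 had been added to the PS cDKO log2 values, which sets the median ratio of bright probe sets to 0. Intensities below 231.7, the 40th percentile of both arrays pooled, are called below the floor, and a probe set below it on both arrays has no ratio. Of the targeted genes, the Psen2 probe set lay below the floor on both arrays, at 94.9 in PS cDKO and 105 in control, and so did not check the genotype. The only repeated measurement was between probe sets of the same gene. From 749 such pairs the SD of the log2 ratio of 1 probe set was 0.21, which holds no variation between animals. Probe sets are counted at 1.5-fold and at a lower threshold, an absolute log2 ratio of 0.32 or more.

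**Figure D1:**
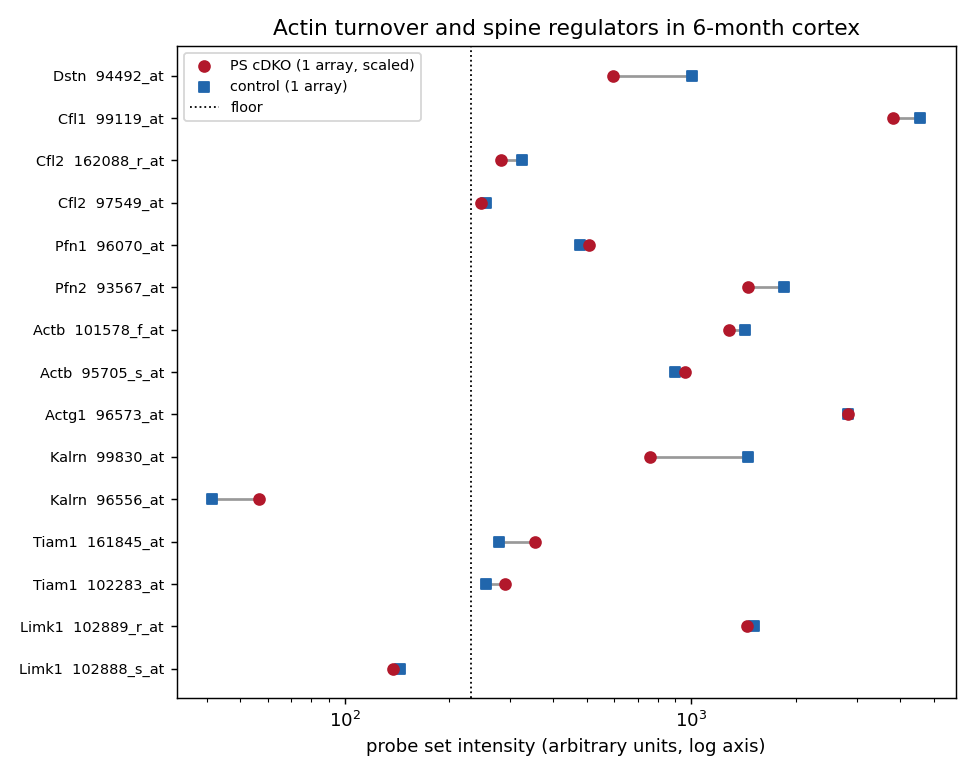
Intensity of each of the 15 probe sets on the PS cDKO array (red circles, scaled) and on the control array (blue squares), on a log axis in arbitrary units; the dotted line is the floor at 231.7. The widest gaps above the floor are at Kalrn and Dstn, whereas the points of Actg1 and Limk1 nearly coincide.

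Among the depolymerising factors, Dstn stood lower in the knockout by the largest factor. Dstn encodes destrin, also called actin-depolymerising factor, which binds monomers and takes filaments apart. The intensity of its probe set was 579 in PS cDKO and 1004 in control, a log2 ratio of -0.76 or 1.69-fold lower in PS cDKO. Of the 6905 probe sets with a ratio, 20 had a lower one. Cfl1, the non-muscle cofilin and the main one in neurons, had 3738 in PS cDKO and 4572 in control, a log2 ratio of -0.26 or 1.20-fold lower. That difference is close to the SD of 0.21 for the log2 ratio of 1 probe set. After lowess, which removes any trend of the ratio with signal, the log2 ratio was -0.094. Cfl2, the cofilin best known from muscle, is represented by a pair of dim probe sets. One, with the suffix _r in its identifier, had 276 in PS cDKO and 324 in control, with a log2 ratio of -0.20. The other had 242 in PS cDKO and 255 in control, with a log2 ratio of -0.043. Both Cfl2 ratios were smaller in size than the SD of 0.21. All 4 probe sets of these factors had ratios below 0, as had 47.9% of all probe sets with a ratio. Dstn alone was past the lower threshold, where 8.82% of all were called lower.

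Dstn and Cfl1 belong to the same protein family, and the 250 bases upstream of the RefSeq start site are shown for each. Both are from GRCm38.p6 and are read 5′ to 3′ on the gene's strand, Dstn at chr2:143915081-143915330 and Cfl1 at chr19:5490205-5490454. Capitals mark the GC box, GGGCGG or its reverse complement.
Dstn: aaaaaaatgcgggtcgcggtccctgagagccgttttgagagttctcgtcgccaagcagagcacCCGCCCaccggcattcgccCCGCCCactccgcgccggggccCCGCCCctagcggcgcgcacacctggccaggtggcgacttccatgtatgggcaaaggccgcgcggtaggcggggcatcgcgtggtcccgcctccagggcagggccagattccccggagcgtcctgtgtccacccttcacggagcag
Cfl1: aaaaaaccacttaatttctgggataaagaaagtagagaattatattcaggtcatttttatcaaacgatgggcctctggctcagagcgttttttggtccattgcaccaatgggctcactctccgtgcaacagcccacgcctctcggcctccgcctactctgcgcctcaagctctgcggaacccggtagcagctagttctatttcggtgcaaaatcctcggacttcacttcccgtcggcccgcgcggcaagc
The GC box occurred at 3 positions upstream of Dstn and at 0 upstream of Cfl1. Of all 32851 RefSeq promoter windows of that length, 32.7% held it on either strand. The Cfl1 window had a CCAAT box on the gene's strand, at -146 to -142 from the start site, a motif found in 33.8% of windows. The Dstn window had none. These matches describe the letters only, and no binding was measured. Any link between these motifs and the ratios was not tested.

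The profilins differed from each other. Pfn2, the profilin that predominates in brain, had 1423 in PS cDKO and 1853 in control, a log2 ratio of -0.35 or 1.27-fold lower. After lowess the ratio was -0.28, short of the lower threshold of -0.32. Pfn1, expressed in nearly all cell types, had 495 in PS cDKO and 477 in control, a log2 ratio of 0.086. The brain form was thus the lower one, and the ubiquitous form differed from control by less than the spread of 0.21. Each gene has 1 probe set, so neither value has a repeat.

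The upstream windows of the profilins, which are close paralogues, are shown in the same way. They lie on the minus strand of GRCm38.p6, Pfn2 at chr3:57847758-57848007 and Pfn1 at chr11:70654651-70654900, with the GC box in capitals.
Pfn2: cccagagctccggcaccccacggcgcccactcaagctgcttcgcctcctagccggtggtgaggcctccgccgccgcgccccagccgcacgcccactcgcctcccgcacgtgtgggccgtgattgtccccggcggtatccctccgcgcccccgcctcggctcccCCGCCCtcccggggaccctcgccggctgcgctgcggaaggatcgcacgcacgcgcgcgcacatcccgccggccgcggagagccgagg
Pfn1: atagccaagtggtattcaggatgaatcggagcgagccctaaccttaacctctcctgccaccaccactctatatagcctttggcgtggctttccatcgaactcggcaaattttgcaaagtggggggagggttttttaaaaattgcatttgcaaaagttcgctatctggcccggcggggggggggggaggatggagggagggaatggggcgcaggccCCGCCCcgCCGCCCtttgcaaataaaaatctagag
The GC box was found at 1 position upstream of Pfn2, from -87 to -82. Upstream of Pfn1 it was found at 2 positions, at -35 and at -27, nearer to the start site. The start site used for Pfn1 was not at the end of its annotated gene, whereas that of Pfn2 was. Neither window held a CArG box, the binding motif of serum response factor, on either strand. Here too, any link between the motifs and the ratios was not tested.

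The actins themselves were nearly alike on the 2 arrays. Actg1, the cytoplasmic γ-actin, had 2769 in PS cDKO and 2839 in control, a log2 ratio of -0.002. Under quantile normalization and lowess this ratio was positive, at 0.13 and 0.12. Actb, the cytoplasmic β-actin and a common loading control, has a pair of probe sets that pointed in opposite directions. The brighter had 1259 in PS cDKO and 1425 in control, with a log2 ratio of -0.15. The other had 939 in PS cDKO and 899 in control, with a log2 ratio of 0.096. The 2 ratios lay 0.24 apart, and their mean was -0.025. Both identifiers carry a suffix (_f and _s) that marks probe sets which can match several related transcripts, so signal from near-identical actin genes cannot be told apart there.

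Actins are classical targets of serum response factor, whose own activity is set by the pool of actin monomers, and the upstream window of Actg1 is shown for its CArG box. It lies on the minus strand of GRCm38.p6 at chr11:120348496-120348745. The box starting at -90 and the GC boxes are in capitals.
Actg1: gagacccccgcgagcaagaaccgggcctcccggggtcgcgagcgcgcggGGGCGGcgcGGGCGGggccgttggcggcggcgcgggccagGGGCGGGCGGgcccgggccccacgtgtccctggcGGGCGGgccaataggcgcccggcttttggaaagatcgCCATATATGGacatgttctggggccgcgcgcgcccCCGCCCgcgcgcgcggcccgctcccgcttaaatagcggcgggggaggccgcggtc
The CArG box occupied -90 to -81 and, being a palindrome here, matched on both strands. Only 1.47% of the 32851 windows held one. The GC box was found at 6 positions upstream of Actg1, with one overlapping pair. Of the 10 genes all but Actb had a RefSeq window, 11 windows in all, and among these the CArG box was found upstream of Actg1 alone.

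The regulators above cofilin differed from control in both directions. Kalrn encodes kalirin, a Rac exchange factor concentrated at excitatory postsynaptic sites. Its bright probe set had 742 in PS cDKO and 1455 in control, a log2 ratio of -0.94 or 1.92-fold lower, the largest difference among the 10 genes. Only 9 of the 6905 probe sets with a ratio lay lower. A further Kalrn probe set had 55.1 in PS cDKO and 41.4 in control, below the floor on both arrays, and gave no ratio. Kalrn makes many isoforms from several start sites, and which of them a probe set detects was not established here.

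Tiam1, a Rac exchange factor that couples NMDA receptors to spine growth, was the gene with the highest ratio. One probe set had 345 in PS cDKO and 279 in control, a log2 ratio of 0.34 or 1.27-fold higher. The other had 284 in PS cDKO and 255 in control, a log2 ratio of 0.19. Both were dim and both were above control, with a mean log2 ratio of 0.26. Under quantile normalization the ratios were 0.29 and 0.12. Limk1, the LIM kinase that inactivates cofilin, had a bright probe set with 1417 in PS cDKO and 1517 in control, a log2 ratio of -0.064. Its second probe set had 134 in PS cDKO and 144 in control, below the floor on both. Both Limk1 identifiers carry a suffix. The kinase thus differed from control by less than the spread.

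Over all 10 genes, 13 of the 15 probe sets had a ratio, and all 13 were above the floor on both arrays. Their median log2 ratio was -0.064, with 9 lower and 4 higher, against a median of 0.012 and 47.9% lower over the 6905 probe sets. With 1 probe set per gene, the brightest, the median of the 10 was -0.17. Past the lower threshold, 3 probe sets were lower (Kalrn, Dstn, Pfn2), where 8.82% of all probe sets were called lower, and 1 was higher (Tiam1), where 8.57% were called higher. At 1.5-fold or more, 2 were lower (Kalrn, Dstn) and 0 were higher, where 1.01% of all were called lower and 1.27% higher. The choice of genes used this same contrast, so the counts are given beside the background and nothing is read from them.

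The share of lower probe sets also depended on signal. In the brightest 20% of probe sets with both arrays above the floor the median log2 ratio was -0.05. Of these, 14.0% were called lower and 3.76% higher past the threshold of 0.32. Of the 13 probe sets, 6 lay in that bright class (Cfl1, Pfn2, Actg1, Kalrn, Limk1 and the brighter one of Actb). All 6 had ratios below 0, where 58.8% of that class did, with a median of -0.20, and 2 of them (Kalrn, Pfn2) were past the threshold. Actg1, at -0.002, was above 0 under quantile normalization and lowess, and Limk1, at -0.064, under quantile normalization. Dstn lay outside that class.

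**Figure D2:**
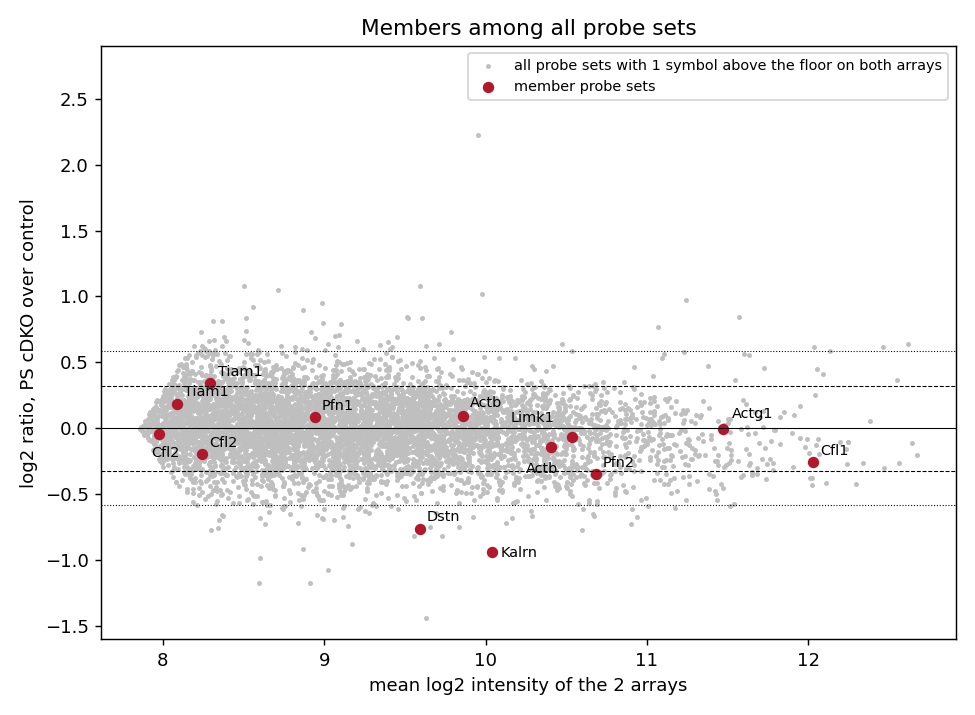
Log2 ratio, PS cDKO over control, against mean log2 intensity for all probe sets with 1 symbol and both intensities above the floor (grey) and for the 13 probe sets of the actin genes with a ratio (red). Dashed lines mark log2 ratios of 0.32 and -0.32 and dotted lines mark 1.5-fold; Kalrn (-0.94) and Dstn (-0.76) lie at the lower edge of the cloud, and the other 11 probe sets lie within the 1.5-fold lines.

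The remaining actin machinery was described from 5 lists with 116 genes, of which 83 had a probe set with 1 symbol and 64 had a ratio. The brightest probe set stood for a gene. The median log2 ratio of the 64 was -0.06, against 0.008 over all 5882 genes with a ratio. Past the threshold of 0.32, 12 were lower, where 8.94% of all genes were called lower, and 7 were higher, where 8.50% of all were called higher. At 1.5-fold or more, 0 of the 64 were lower and 1 was higher (Ephb3), where 0.952% of all genes were called lower and 1.33% higher.

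Other genes of depolymerisation and filament turnover had a median log2 ratio of -0.11 over 9 genes. None was past the threshold downward. Wdr1, a cofactor with which cofilin disassembles filaments, was the one gene past it upward, with 1434 in PS cDKO and 1061 in control (log2 ratio 0.47). Coro1a, a coronin of leukocytes and neurons, had 339 in PS cDKO and 415 in control (-0.26), and Tesk1, another cofilin kinase, had 489 in PS cDKO and 580 in control (-0.21). With the floor at percentile 60, Coro1a had only a bound of -0.042.

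Genes of monomer binding, nucleation and elongation had a median of -0.11 over 18 genes, with 5 lower and 2 higher past the threshold. Cyfip2, a subunit of the WAVE complex through which Rac starts branched filaments, had 526 in PS cDKO and 762 in control, a log2 ratio of -0.50. Another WAVE subunit, Nckap1, had a log2 ratio of -0.33, and the Arp2/3 subunits Arpc1a and Arpc2 had -0.39 and -0.35. The Arp2/3 complex nucleates the branches. The other Arp2/3 subunits with a ratio were mixed, with log2 ratios of 0.33 (Arpc5l), -0.074 (Arpc4) and -0.21 (Actr3). So were the other WAVE subunits, with 0.29 (Abi1) and -0.30 (Brk1). Wasf2 and Arpc5 lay below the floor on both arrays. Nckap1, Abi1, Brk1 and the Arp2/3 subunits were named after their values were seen. Evl, of the Ena/VASP elongation factors, had 321 in PS cDKO and 431 in control (-0.39), but its second probe set, which has no suffix, had a log2 ratio of -0.021. Zyx, the focal adhesion protein zyxin, was on the higher side, with 813 in PS cDKO and 610 in control (0.45).

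Capping, bundling and crosslinking genes had a median of -0.066 over 22 genes, with 4 lower and 3 higher past the threshold. Sptan1, the αII-spectrin of the membrane skeleton, had 834 in PS cDKO and 1200.2 in control, a log2 ratio of -0.49. The capping protein subunit Capza2 (-0.40), α-actinin 2 (Actn2, -0.33) and α-adducin (Add1, -0.33) were the other lower ones, named after their values were seen. Msn, the membrane linker moesin, had 455 in PS cDKO and 315 in control (0.57), and with the floor at percentile 60 it had a bound of 0.21. Lcp1, the leukocyte bundling protein L-plastin, had 805 in PS cDKO and 568 in control (0.54). Myl6, a myosin light chain named after its value was seen, had a log2 ratio of 0.37. Of the muscle actins, Actg2 and Actc1 had log2 ratios of 0.27 and 0.045, both from probe sets with the suffix _f. Acta1 and Acta2 lay below the floor on both arrays.

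**Figure D3:**
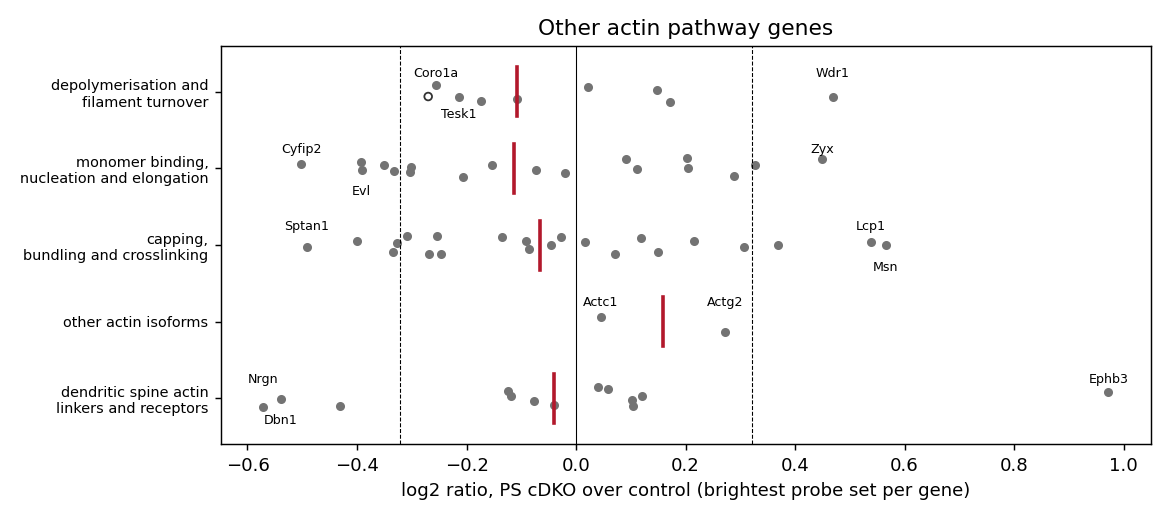
Log2 ratio, PS cDKO over control, of each gene with a ratio in the 5 lists of other actin genes (grey points, brightest probe set per gene; the open circle is a bound), with the list median in red and log2 ratios of 0.32 and -0.32 as dashed lines. The list medians lie between -0.11 and 0.16, with 12 genes at or beyond the lower line and 7 at or beyond the upper one.

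Among spine actin linkers and receptors, with a median of -0.041 over 13 genes, 3 were lower past the threshold. Dbn1, the spine actin-binding protein drebrin, had 248 in PS cDKO and 369 in control, a log2 ratio of -0.54. Its PS cDKO value was close to the floor, and with the floor at percentile 60 it had no ratio. Nrgn, the postsynaptic calmodulin-binding protein neurogranin, had 1325 in PS cDKO and 2014 in control (-0.57). Cdk5, a neuronal kinase named after its value was seen, had a log2 ratio of -0.43. Ephb3, a receptor for ephrin-B ligands, was the one gene at least 1.5-fold higher in these lists, with 3321 in PS cDKO and 1733 in control (0.97).

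Markers of the cell types of cortex were set beside these values. Of 9 neuronal markers with a ratio, 8 were above the floor on both arrays and Map2 on the control array alone, as cortex should show. In all, 8 of the 9 with a ratio were lower. Their median log2 ratio was -0.24, and they had a summed intensity of 15175 in PS cDKO (scaled) and 18610 in control. Their ratios ran from -0.55 (Thy1) to 0.062 (Syt1). Microglial and macrophage markers were higher in 9 of the 10 with a ratio, with a median of 0.62, where 3023 of the 5882 genes were higher. All 12 with a probe set, those below the floor included, summed to 7292 in PS cDKO (scaled) and 4740 in control. Above the floor on both arrays, C1qa had the highest log2 ratio, 1.08, and Ptprc the lowest, -0.047. The bright probe set of C1qb, named after its value was seen, had a bound of 1.54, while Aif1 and Fcer1g lay below the floor on both arrays. Astrocyte markers had a median of 0.075 over 7 genes, from -0.25 (Aldoc) to 2.23 (Gfap). With Fgfr3, below the floor on both arrays, the 8 with a probe set summed to 12229 in PS cDKO (scaled) and 10838 in control.

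Oligodendrocyte markers had a median of -0.13 over 5 genes, from -0.36 (Cldn11) to 0.24 (Mbp). The 7 with a probe set, including Mog and Cnp below the floor on both arrays, summed to 5136 in PS cDKO (scaled) and 5201 in control. Endothelial and mural markers had a median of 0.068 over 6 genes, from -0.44 (Cldn5) to 0.19 (Flt1, whose second probe set had a log2 ratio of -0.17). Cldn5 was barely above the floor in PS cDKO (236 scaled) and had no ratio with the floor at percentile 60. Pecam1, Cdh5, Tek, Acta2, Myh11 and Pdgfrb lay below the floor on both arrays. With these included, the 12 with a probe set summed to 3368 in PS cDKO (scaled) and 3323 in control. Fewer cells of a type and less RNA per cell cannot be told apart in whole cortex. The part of the cell type markers in the values of Kalrn, Dstn, Pfn2, Lcp1 or Msn was not tested.

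**Figure D4:**
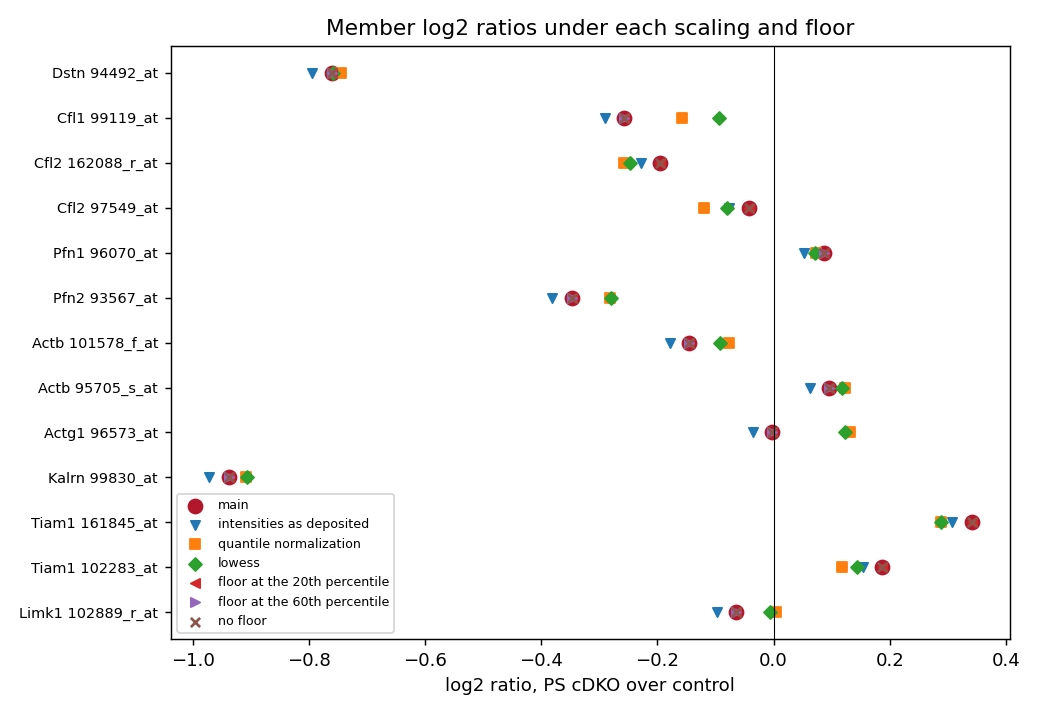
Log2 ratio, PS cDKO over control, of the 13 probe sets with a ratio under the scaling and floor reported here (large red circles) and 6 other settings. Kalrn stays between -0.97 and -0.91 and Dstn between -0.79 and -0.75. Cfl1 ranges from -0.29 to -0.094, and Actg1 and Limk1 fall on both sides of 0. Values differ from those reported only for the intensities as deposited, quantile normalization and lowess.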

How the data were processed

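The authors deposited 1 linear intensity per probe set and array, for 12418 probe sets. Negative intensities (18 in PS cDKO, 13 in control) show some subtraction, but the software, summary method and scaling were not given in the sources used here. The platform table gave 10829 probe sets 1 symbol, 396 several and 1193 none; only the first kind was used, and 0 of the second included one of the 10 genes.

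The PS cDKO array was scaled to a median log2 ratio of 0 over probe sets above the median on both arrays, the 40th percentile served as a floor, and values were put on the log2 scale. With a single array at the floor the ratio is a bound, counted at its limit. The genes and all lists were chosen with earlier results of these data known. A further 2 pathway lists are not reported here. Named pathway genes are, in each list, the 3 with the largest absolute ratio above the floor on both arrays and any with a bound past 1.5-fold. Named markers are the highest and lowest above the floor on both arrays. Others are marked, or named as below the floor. The ratio code was tested on simulated data. Promoter windows are from RefSeq, GRCm38.p6, which may differ from the build used for the platform. Alternatives were the intensities as deposited, quantile normalization, lowess (span 0.3), no floor, a floor at percentile 20 or 60, no suffixed probe sets, 1 probe set per gene and 1.5-fold. Control probe sets of the array, planned as a check of RNA quality, were not analysed here. With intensities and no counts, the number of arrays limits the precision. Python 3.11.15, numpy 2.4.6, pandas 2.3.3, statsmodels 0.14.6 and matplotlib 3.10.9 were used.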

Additional observations from a re-analysis of the deposited data

How the results depend on the processing

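Leaving out an array was not possible. No paired analysis was possible because single arrays are compared. All 93 values of the 13 probe sets under the alternatives lay within 0.21 of the value reported. Many of these are repeats of the same value. Changing or dropping the floor, leaving out suffixed probe sets and taking 1 probe set per gene left every remaining value as reported. Those settings only removed, kept or added probe sets here, so they say nothing about how stable a ratio is. Only the intensities as deposited (a constant shift), quantile normalization and lowess altered the ratios of the 13 probe sets. Of these probe sets, Actg1 (up to 0.13 under quantile normalization) and Limk1 (0.004 there) changed sign. Of 187 values of other named genes, 5 moved by more than 0.21: Msn (0.21), Coro1a (-0.042) and Evl (-0.097) with the floor at percentile 60, and Evl (-0.021) and Gfap (2.64) without suffixed probe sets. The number lower past the threshold of 0.32 was 3. It was 2 at 1.5-fold, and 2 under lowess and under quantile normalization, where Pfn2 dropped out. The number higher was 1. It was 0 as deposited, under quantile normalization, under lowess, at 1.5-fold and with the floor at percentile 60, where the dim Tiam1 probe sets have no ratio. With no floor it was 2, the second being the dim Kalrn probe set. Leaving out array control probe sets was not run, since the values used held 0 of them. The causes were not tested.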
